A study of Mus musculus with 20 samples.

Results

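The genes described here are the opioid receptor genes Oprm1, Oprd1 and Oprk1, the nociceptin receptor gene Oprl1 and Pnoc, which encodes the precursor of nociceptin. They were taken by symbol from the gene tables of mouse striatum and are 5 of the 39179 genes listed. All 5 passed the filter on low counts, which kept 14792 genes. Opioid and nociceptin receptors are receptors coupled to inhibitory G proteins: when a peptide binds, they lower cyclic AMP, open inwardly rectifying potassium channels and close calcium channels, and so quiet the neuron. Enkephalins act mainly on the delta and mu receptors, dynorphins on the kappa receptor, and nociceptin on its own receptor, which binds classical opioid peptides poorly. In the striatum the mu receptor is known for marking the patches called striosomes, and the kappa receptor for restraining dopamine release.

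The mice were adult males of generation 17 from lines bred from a single intercross of inbred strains. The High-Active line was selected for activity in the home cage and the Control line was not. At about 6.5 months of age each mouse received an intraperitoneal injection of saline or of 0.25 mg/kg d-amphetamine sulfate, and the whole dorsal and ventral striatum of both sides was collected 2 hours later. With 5 mice for each line and injection there were 4 groups, called Control or High-Active, saline or amphetamine, below. Each line is unreplicated, a single selected and a single unselected line, so selection, drift and shared parents cannot be told apart in a difference between the lines. By the sire and dam given in the labels, some mice were brothers, since 8 parental pairs gave the 10 Control mice and 5 pairs the 10 High-Active mice. The study's methods instead describe every mouse as coming from a separate family. The sources thus disagree, and every result by parents or brothers given here follows the labels.

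Libraries held 32388971 to 53710713 gene counts. The markers of medium spiny neurons, the main cell type of the striatum, were present in every group, and 0 of these 8 genes passed the test between the lines. All 8 were nonetheless lower in High-Active mice, with a median line difference of -0.14 on the log2 scale. Markers of cortical excitatory neurons differed widely between mice: their summed level ranged from 267 to 793 CPM (read counts scaled to the library size) in Control saline, from 575 to 804 CPM in Control amphetamine, from 136 to 318 CPM in High-Active saline and from 187 to 925 CPM in High-Active amphetamine. Of these 8 genes, 3 were downregulated in High-Active mice (Neurod2, Slc17a7 and Tbr1), and none was at 0 in every mouse. All 8 cortical markers were lower in High-Active mice. Their median line difference was -0.74 on the log2 scale, and -1.19 in saline mice. Of the 8 oligodendrocyte markers, 2 were upregulated (Mbp and Mobp), and 7 had a line difference above 0 (median 0.20). Of 6 astrocyte markers 2 were upregulated (Aldh1l1 and Gja1) and 1 downregulated (Slc1a2), and of 6 microglia markers 2 were downregulated (Aif1 and Csf1r). All 4 claustrum markers were lower (median -0.42), and 1 was called (Gnb4). All 5 choroid plexus markers were higher (median 0.61), and 0 were called. Over all 14792 genes, 14.5 percent passed the same test, and 7.63 percent passed it with a higher level in High-Active mice. With so few genes in each list, these counts by themselves say little about a cell type.

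Pnoc and the opioid precursors Penk and Pdyn encode short peptides that are cut out between pairs of basic residues. In each the first 4 codons, shown in capitals, encode the stretch at the start of the peptide through which the receptor is activated. Opioid peptides begin with tyrosine and nociceptin with phenylalanine. The sequences below were read from the GENCODE transcripts of GRCm38, all on the minus strand and written 5′ to 3′, and they are shown because they set nociceptin beside the closest peptides of the other receptors: a dynorphin of the same length and leucine-enkephalin.
Pnoc, nociceptin, exon 3 of 4, chr14:65404842-65404892: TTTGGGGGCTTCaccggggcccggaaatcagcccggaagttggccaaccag
Pdyn, dynorphin, exon 4 of 4, chr2:129688094-129688144: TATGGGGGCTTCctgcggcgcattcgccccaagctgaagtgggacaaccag
Penk, leucine-enkephalin, exon 2 of 2, chr4:4133941-4133955: TATGGGGGCTTCctg
The nociceptin and dynorphin stretches each encode 17 residues and the enkephalin stretch 5. The search took only stretches that directly follow a lysine-arginine pair, and 1 that starts in this way was found in Pnoc, 3 in Pdyn, 6 in Penk and 1 in Pomc.

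The receptor genes lie apart in GRCm38. Oprm1 (ENSMUSG00000000766) is at chr10:6758506-7038198 on the plus strand, Oprd1 (ENSMUSG00000050511) at chr4:132110726-132144486 on the minus strand, Oprk1 (ENSMUSG00000025905) at chr1:5588466-5606131 on the plus strand and Oprl1 (ENSMUSG00000027584) at chr2:181715016-181720985 on the plus strand. Pnoc (ENSMUSG00000045731) is at chr14:65400673-65425472 on the minus strand. The encoded receptors were alike: Oprm1 and Oprk1 shared 61.4% of aligned residues, Oprm1 and Oprd1 61.1%, and Oprd1 and Oprk1 61.0%. Oprl1 was less like the others, with 53.3% shared with Oprk1, 54.6% with Oprd1 and 55.8% with Oprm1. Over all annotated transcripts of each pair of receptor genes, the longest identical stretch was 25 bases, shorter than a sequencing read. Oprm1 shares 96 exon bases with Ipcef1, which lies on the opposite strand and had 45388 counts in all. The libraries were stranded, but the strand setting of the counting is not given in the sources used here, so a part of the Oprm1 count could have been lost to or gained from this overlap.

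Levels were compared between genes only per kilobase of exon, counting all annotated exons of a gene. That length was 8037 bases for Oprm1 and 9151 for Oprk1, while the transcripts read for their proteins had 1440 and 1376. It was 4021 for Oprd1, 3753 for Oprl1 and 2157 for Pnoc, whose transcripts had 4021, 2999 and 2157. The order below depends on this choice of length, and no other length was used. Dividing by the shorter transcripts would raise Oprk1 and Oprm1 more than the other genes. The places of Oprk1 and Oprm1 in the order are therefore not established. By this measure Oprl1 was the highest member, at 11.5 CPM per kb ± 1.85 (SD, n = 20 mice). It was followed by Oprd1 at 4.33 ± 0.801, Oprk1 at 3.92 ± 0.617, Pnoc at 3.09 ± 1.07 and Oprm1 at 0.651 ± 0.170 CPM per kb. With all annotated exons as the length, Oprl1 was above Oprd1, and Pnoc above Oprm1, in 20 of 20 mice. The ranges of these pairs did not overlap, but the order of Pnoc and Oprm1 rests on the length used. Oprd1 was above Oprk1 in only 13 of 20 mice and Oprk1 above Pnoc in 14 of 20, so the order of these neighbours was within the spread of the mice.

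Against the other precursors, Pnoc was low. Penk, the enkephalin precursor made by medium spiny neurons of the indirect pathway, stood at 754 CPM per kb ± 119 (SD, n = 20 mice). Pdyn, the dynorphin precursor of direct pathway neurons, stood at 42.6 ± 8.47 CPM per kb. Pomc, the precursor of beta-endorphin, which is made mainly outside the striatum, stood at 0.671 ± 0.286 CPM per kb. This was near the level of Oprm1 over all its annotated exons.

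**Figure D1:**
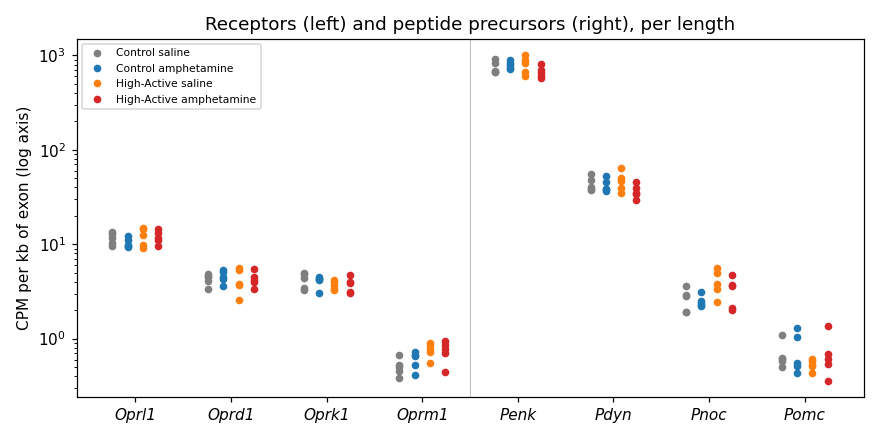
Level in CPM per kb of all annotated exons (log axis) of receptor genes on the left and peptide precursor genes on the right. There is a point for each of the 20 mice, coloured by group. The points of Oprl1 lie above those of the other receptors and the points of Oprm1 below them, and Penk exceeds every other gene shown. The heights of Oprm1 and Oprk1 depend strongly on the length used.

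The first question was whether selection for activity was accompanied by a difference in these genes. In the line effect, the difference of High-Active from Control mice over saline and amphetamine alike, Oprm1 and Pnoc were upregulated in High-Active mice, and Oprd1, Oprk1 and Oprl1 did not pass the test. A gene was called at an adjusted p (FDR) under 0.1 in edgeR's quasi-likelihood test over all 14792 genes. These 2 of 5 members stood against 14.5 percent of all genes called for the line effect, and 7.63 percent called with a higher level in High-Active mice. With so few members the count by itself says little about the group.

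Oprm1 encodes the mu receptor, the target of morphine and a receptor for enkephalins and beta-endorphin. Its level was 4.01, 5.36, 3.62, 4.26 and 3.10 CPM in the Control saline mice and 5.36, 5.25, 4.23, 5.80 and 3.32 CPM in the Control amphetamine mice. It was 4.38, 6.27, 7.25, 5.75 and 6.81 CPM in the High-Active saline mice and 6.80, 6.28, 5.71, 3.57 and 7.57 CPM in the High-Active amphetamine mice. Of the 10 High-Active mice, 6 were above every Control mouse and 9 were above the Control median. The exception was High-Active amphetamine mouse 4, at 3.57 CPM, whose brothers High-Active saline 3 and 4 were at 7.25 and 5.75 CPM. These values rest on 137 to 375 reads per mouse.

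The mean was 4.43 CPM ± 0.954 (SD, n = 10) in Control and 6.04 ± 1.25 (SD, n = 10) in High-Active mice. The line difference in Oprm1 was 0.45 on the log2 scale ± 0.14 (SE), a 1.37-fold higher level with a 95% interval of 1.12 to 1.67 (edgeR quasi-likelihood test, adjusted p = 0.0532). In this tissue, a difference in the number of cells of a type and a difference in RNA per cell cannot be told apart. The call held without each of the 20 mice in turn, with adjusted p between 0.0177 and 0.0993. It did not hold when reads were summed over mice of the same parents (log2 difference 0.50, adjusted p = 0.102), nor with the cortical and oligodendrocyte marker levels as covariates (0.36, adjusted p = 0.355).

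Pnoc encodes the precursor of nociceptin, the ligand of the Oprl1 receptor. Its level was 4.11, 6.31, 6.14, 7.81 and 4.10 CPM in Control saline and 4.91, 5.19, 6.64, 4.74 and 5.34 CPM in Control amphetamine mice. It was 12.0, 5.22, 8.10, 10.7 and 7.24 CPM in High-Active saline and 4.53, 10.2, 8.02, 7.76 and 4.28 CPM in High-Active amphetamine mice. The groups overlapped: 5 of the 10 High-Active mice were above every Control mouse, while 3 were below the Control median. The coefficient of variation was 27.9% in Control saline, 14.0% in Control amphetamine, 31.4% in High-Active saline and 36.2% in High-Active amphetamine mice, and these spreads were not tested against each other.

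The line difference in Pnoc was 0.49 ± 0.18 (SE) on the log2 scale, a 1.40-fold higher level in High-Active mice with a 95% interval of 1.08 to 1.81 (edgeR quasi-likelihood test, adjusted p = 0.0933). This call lay close to the threshold and was lost when any of 14 of the 20 mice was left out. Over all 20 fits the difference ranged from 0.40, without High-Active amphetamine mouse 2 (adjusted p = 0.180), to 0.56, without High-Active saline mouse 2. The adjusted p of these fits ranged from 0.0496 to 0.180. The call was also lost in limma-voom with the parents as a block (0.42, adjusted p = 0.174), and with cortical and oligodendrocyte marker levels as covariates the difference was 0.21 (adjusted p = 0.681).

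**Figure D2:**
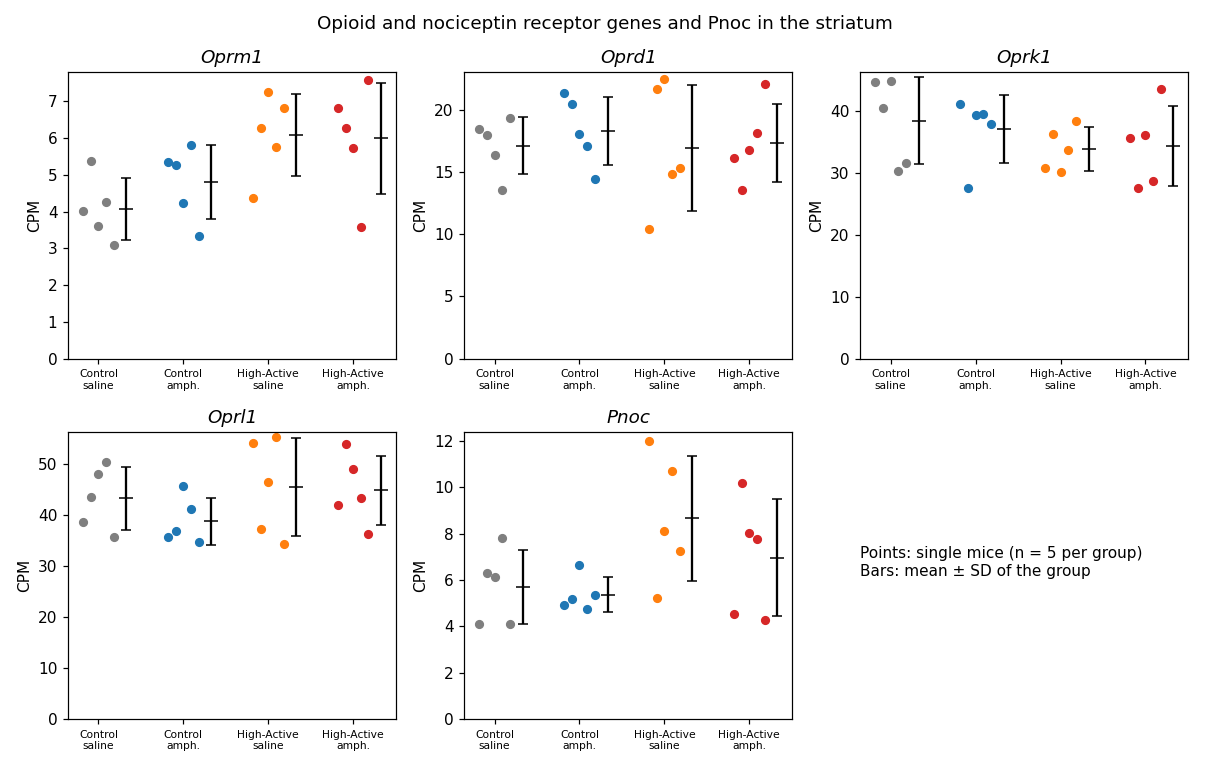
Level in CPM of each gene by group, with a point per mouse (n = 5 per group) and bars for the group mean ± SD. In Oprm1 most High-Active points lie above the Control points, in Pnoc the High-Active points are spread from 4.28 to 12.0 CPM, and the groups overlap in Oprd1, Oprk1 and Oprl1.

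Oprl1 encodes the nociceptin receptor, the partner of Pnoc. Its level was 38.7, 43.5, 48.1, 50.4 and 35.8 CPM in Control saline and 35.7, 36.8, 45.8, 41.2 and 34.8 CPM in Control amphetamine mice. It was 54.2, 37.2, 46.6, 55.3 and 34.4 CPM in High-Active saline and 41.9, 53.9, 49.1, 43.4 and 36.3 CPM in High-Active amphetamine mice. The highest 3 values were from High-Active mice, but so was the lowest. The line difference was 0.14 ± 0.10 (SE) on the log2 scale (95% interval of the fold 0.958 to 1.27, edgeR adjusted p = 0.375).

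Oprd1 encodes the delta receptor, which binds enkephalins. It ranged from 13.6 to 19.3 CPM in Control saline (median 17.9) and from 14.5 to 21.4 CPM in Control amphetamine mice (median 18.0). In High-Active mice it ranged from 10.4 to 22.4 CPM after saline (median 15.3) and from 13.5 to 22.0 CPM after amphetamine (median 16.7). The lowest and the highest value of the 20 mice were both in the High-Active saline group. The line difference was -0.05 ± 0.12 (SE) on the log2 scale (95% interval of the fold 0.809 to 1.16, edgeR adjusted p = 0.847).

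Oprk1 encodes the kappa receptor, the receptor for dynorphins. Its level was 44.7, 40.4, 44.9, 30.3 and 31.7 CPM in Control saline and 41.1, 27.5, 39.3, 39.5 and 37.9 CPM in Control amphetamine mice. It was 30.8, 36.3, 30.2, 33.7 and 38.4 CPM in High-Active saline and 35.7, 27.5, 36.1, 28.7 and 43.5 CPM in High-Active amphetamine mice. Although 9 of the 10 High-Active mice were below the Control median, none was below every Control mouse. The line difference was -0.15 ± 0.10 (SE) on the log2 scale (95% interval of the fold 0.784 to 1.04, edgeR adjusted p = 0.367).

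The lines were then compared within each treatment, with 5 mice against 5. No member passed the test in saline mice, where 3.74 percent of all genes did, or in amphetamine mice, where 1.3 percent did. Oprm1 differed by 0.58 ± 0.20 (SE) on the log2 scale in saline mice (edgeR adjusted p = 0.136), where 4 of the 5 High-Active mice were above every Control mouse. In amphetamine mice it differed by 0.32 ± 0.20 (adjusted p = 0.501). In saline mice the difference passed the threshold with DESeq2 (adjusted p = 0.0752) and with the likelihood-ratio test with robust dispersions (adjusted p = 0.0703).
Pnoc differed by 0.60 ± 0.25 (SE) in saline mice (edgeR adjusted p = 0.221) and by 0.37 ± 0.25 in amphetamine mice (adjusted p = 0.544). In saline mice 3 of the 5 High-Active mice were above every Control mouse. In amphetamine mice the High-Active group lay on both sides of the Controls, with 3 mice above all of them and 2 below. The other receptors differed by -0.18 to 0.07 in saline mice and by -0.11 to 0.21 in amphetamine mice.

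The next question was whether amphetamine, given 2 hours earlier, changed these genes. No member passed the test for the amphetamine effect averaged over both lines, in which 0 percent of all genes were called by edgeR's quasi-likelihood test. The level of cortical markers went with the injection, though 0 of these 8 genes were called. All 8 were higher after amphetamine, with a median log2 difference of 0.99. It was 0.46 in Control and 1.48 in High-Active mice. Over all genes 1844 had an unadjusted p under 0.05 for this effect. DESeq2 called 391 genes, the likelihood-ratio test with robust dispersions 458 and limma-voom 0, and none of these settings called a member.

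Oprm1 was 5.08 CPM ± 1.41 (SD, n = 10) after saline and 5.39 ± 1.37 after amphetamine, a log2 difference of 0.11 ± 0.14 (SE, edgeR adjusted p = 0.809). Pnoc differed by -0.20 ± 0.18 (adjusted p = 0.695), with an interval of the fold from 0.672 to 1.12. The intervals of the fold were 0.818 to 1.08 for Oprl1, 0.873 to 1.25 for Oprd1 and 0.858 to 1.14 for Oprk1. Responses within these intervals remained possible with 10 mice per treatment, and the bounds are not limits of detection. They also take no account of the cortical markers. With cortical and oligodendrocyte scores as covariates, the amphetamine effect changed sign for Oprl1 (0.11) and Pnoc (0.016), and neither was called.

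Within the lines the response to amphetamine was no clearer, and 0 percent of genes were called in either line. In Control mice 940 genes had an unadjusted p under 0.05, and DESeq2 called 6, the likelihood-ratio test 45 and limma-voom 0. In High-Active mice 1247 genes had an unadjusted p under 0.05, and DESeq2 called 131, the likelihood-ratio test 280 and limma-voom 0. The largest response among the members was that of Pnoc in High-Active mice, at -0.32 ± 0.25 (SE) on the log2 scale (edgeR adjusted p = 0.805). Oprm1 responded by 0.24 ± 0.20 in Control mice (adjusted p = 0.852) and by -0.03 ± 0.20 in High-Active mice (adjusted p = 0.990).

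The difference between these responses, the line by amphetamine interaction, passed the test for no member and for 0 percent of all genes. Over all genes, 440 had an unadjusted p under 0.05 for the interaction, and DESeq2 called 0, the likelihood-ratio test 6 and limma-voom 0. The interaction was -0.26 ± 0.28 (SE) on the log2 scale for Oprm1 (unadjusted p = 0.357, edgeR adjusted p above 0.99 for all members). It was -0.23 ± 0.35 for Pnoc, 0.14 ± 0.19 for Oprl1, 0.07 ± 0.20 for Oprk1 and -0.06 ± 0.25 for Oprd1. The smaller line difference of Oprm1 and Pnoc in amphetamine mice was thus within the error. All 8 cortical markers had an interaction above 0 (median 0.90), and 0 of them were called.

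**Figure D3:**
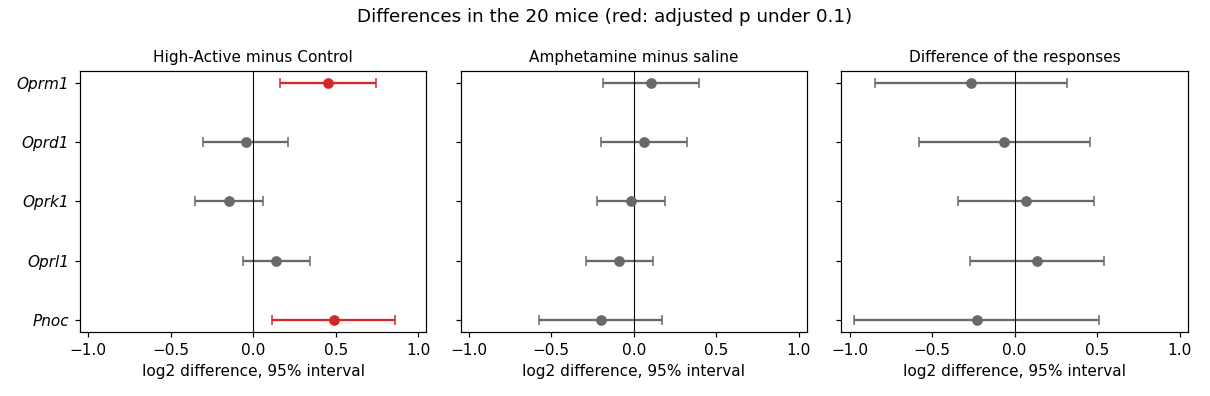
Log2 differences of the 5 genes with 95% intervals for the line effect, the amphetamine effect and the interaction, fitted over 20 mice, with red points at an adjusted p under 0.1. The intervals of Oprm1 and Pnoc lie above 0 in the line effect, and every interval spans 0 in the amphetamine effect and the interaction.

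The line differences of Oprm1 and Pnoc were also set out by fitting method. Oprm1 was between 0.36 and 0.50 and Pnoc between 0.21 and 0.49 over the 8 alternatives, so that neither changed direction. Oprm1 kept its call in 6 of the 8 and Pnoc in 4.

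**Figure D4:**
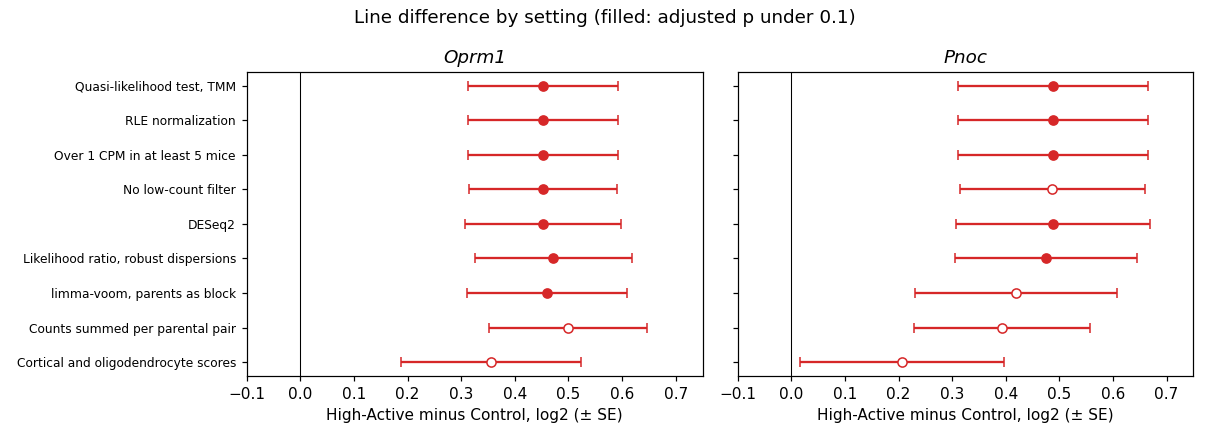
High-Active minus Control difference on the log2 scale ± SE of Oprm1 and Pnoc under the reported fit (top) and 8 alternatives, with filled points at an adjusted p under 0.1. Both genes stay above 0 in every setting, and Pnoc falls to 0.21 with cortical and oligodendrocyte marker scores as covariates.

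Mice differed in these genes beyond their groups, and the deviations of Oprl1 and Pnoc from their group means went together. Over the 20 mice Pearson's r was 0.845 (permutation test within groups, p = 9.00e-05) and Spearman's rho 0.865 (p = 6.00e-05). Among the 15 relations tested, the adjusted p was 0.00135 for r and 0.000900 for rho. A value this high was not particular to the pair. The 3 genes nearest to each had a higher r, at least 0.957 with Oprl1 and 0.914 with Pnoc. How common such an r was over all genes was not tested. Leaving out High-Active saline 4 and 5, which lay farthest from the median of Oprl1, gave an r of 0.881. It was 0.830 within the Control and 0.854 within the High-Active mice (n = 10 each). Because brothers are not independent, mice of the same parents were also averaged, which left 13 families and an r of 0.657 (permutation test, p = 0.00445).

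**Figure D5:**
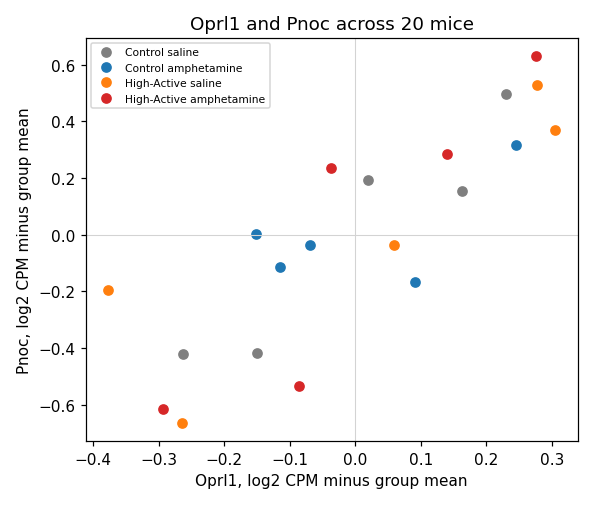
Log2 CPM of Pnoc against that of Oprl1 in 20 mice, each as the deviation from the mean of its group, with colours for the 4 groups. Mice above their group mean in Oprl1 were mostly above it in Pnoc as well (r = 0.845).

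Oprd1 went the other way. Its r with Pnoc was -0.659 over the 20 mice (permutation test, adjusted p = 0.0367) and rho was -0.629 (adjusted p = 0.0913). Leaving out High-Active saline 1 and 3, whose Oprd1 levels were the most extreme, gave an r of -0.677. It was -0.567 within Control and -0.692 within High-Active mice. Averaged by parental pair r was -0.426 (permutation test, p = 0.150). Over these 13 families the relation kept its direction but was not established. The deviations of Oprm1 correlated with those of no other member beyond the error, with r from -0.299 to 0.383 (adjusted p from 0.236 to 0.616).
The level of cortical markers was set against each gene in the same way, and no relation passed the adjustment. Its r was -0.562 with Oprl1 (permutation test, adjusted p = 0.101), -0.520 with Pnoc (adjusted p = 0.169), -0.356 with Oprm1 (adjusted p = 0.325), 0.212 with Oprk1 and 0.173 with Oprd1 (adjusted p = 0.509 for each). With cortical and oligodendrocyte scores regressed out of both genes, the r of Oprl1 and Pnoc was 0.837 (permutation test, p = 4.00e-05) and that of Oprd1 and Pnoc -0.645 (p = 0.0129).

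The genes whose deviations were most like those of each member were taken from all 14792 genes, as a description only. The 20 mice were dissected separately and differed widely in the level of cortical markers. Nearest to Oprl1 were Cd83 (r = 0.974), Pcbd1 (0.965) and B630019K06Rik (0.957), and nearest to Pnoc were Ngb, which encodes neuroglobin (0.942), Sytl4 (0.936) and Ndn (0.914). Ndn is the imprinted gene of necdin. Oprd1 was nearest to Atp2a2, the calcium pump of the endoplasmic reticulum (0.912), Emsy (0.895) and Lrrc7 (0.887). Oprk1 was nearest to Agbl2 (0.784), Stard5 (0.779) and Drd3 (0.760), the dopamine D3 receptor gene known for its expression in the ventral striatum. Oprm1 was nearest to Gm17193 (0.805), Syt10 (0.800) and Cntnap5c (0.799). The nearest genes of Oprm1 differed between the lines by 0.09 or less on the log2 scale and none was called. Among those of Pnoc, Sytl4 differed by 0.96 without passing the test (edgeR adjusted p = 0.151), and Ndn was upregulated by 0.28 (adjusted p = 0.0971). For Oprl1, B630019K06Rik was upregulated by 0.36 (adjusted p = 0.0840). Cd83 (0.44, adjusted p = 0.256) and Pcbd1 (0.51, adjusted p = 0.154) were not called.

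None of the ligand precursors of the opioid receptors passed the test between the lines. Penk was 1234 CPM ± 187 in Control saline, 1293 ± 115 in Control amphetamine, 1309 ± 268 in High-Active saline and 1094 ± 153 in High-Active amphetamine mice (SD, n = 5 each). Its line difference was -0.08 ± 0.09 (SE) on the log2 scale (edgeR adjusted p = 0.628), and those of Pdyn and Pomc were -0.05 ± 0.11 (adjusted p = 0.800) and -0.23 ± 0.25 (adjusted p = 0.592). Penk and Pdyn had their lowest group means in High-Active amphetamine mice. Their responses to amphetamine in that line, -0.26 ± 0.13 and -0.36 ± 0.16, did not pass the test (adjusted p = 0.622 and 0.533).

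Of 64 genes in 7 lists around these receptors, 10 (15.6 percent) were called between the lines, 2 upregulated and 8 downregulated. This share is near the 14.5 percent called over all genes, of which 1129 were upregulated and 1020 downregulated, and so is no result about these lists. The genes called in each are given as a description. The median line difference was -0.04 on the log2 scale, against -0.001 over all genes. Among the 6 processing genes Scg5, the chaperone 7B2 of the convertase PC2, was upregulated by 0.77 ± 0.14 (SE, edgeR adjusted p = 0.00344), and PC2 itself (Pcsk2) was at -0.14 (adjusted p = 0.172). Among the 9 peptidases Ace, the angiotensin-converting enzyme, was downregulated (-0.51, adjusted p = 0.0307). Among the 12 G protein genes Gnb4 (-0.34, adjusted p = 0.0462) and Gnaz (-0.17, adjusted p = 0.0563) were downregulated, and Gnb4 is also a marker of the claustrum, which borders the striatum.

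Of the 14 effector genes 4 were called. Kcnj5, a subunit of the inwardly rectifying potassium channels, was upregulated by 0.62 ± 0.22 (SE, edgeR adjusted p = 0.0838). The other channel subunits of the list were below 0 and not called: Kcnj6 at -0.33 (adjusted p = 0.173), Kcnj9 at -0.16 (adjusted p = 0.315) and Kcnj3 at -0.02 (adjusted p = 0.916). The adenylyl cyclase genes Adcy1 (-0.49, adjusted p = 0.0551) and Adcy9 (-0.29, adjusted p = 0.0302) and Cacna1b, the N-type calcium channel (-0.17, adjusted p = 0.00672), were downregulated. Of the 16 genes of receptor desensitisation and G protein turnover, Rgs4 (-0.27, adjusted p = 0.0831) and Rgs14 (-0.24, adjusted p = 0.0607) were downregulated. None of the 3 precursor genes was called. Without High-Active amphetamine mouse 2 the count over the 64 genes was 5, and it was 3 with the cortical and oligodendrocyte scores as covariates. The count over all 14792 genes fell as well, from 2149 to 1381 and to 429 in these fits.

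Because Oprm1 is a striosome gene, the compartment markers were counted as well. Of the 6 striosome markers, Lypd1 (0.23, edgeR adjusted p = 0.0510) and Sema5b (0.40, adjusted p = 0.0931) were upregulated in High-Active mice. The median of the list was 0.01, with 3 of the 6 above 0. Of the 5 matrix markers, Rasgrp2 was downregulated (-0.30, adjusted p = 0.0414), the median was -0.12 and all 5 were below 0. The summed levels overlapped between the lines: striosome markers ranged from 941 to 1195 CPM in Control and from 865 to 1237 CPM in High-Active mice, and matrix markers from 893 to 1038 CPM and from 754 to 1056 CPM. Among the 8 interneuron markers tested 0 were called, with summed levels from 374 to 411 CPM in Control and from 340 to 440 CPM in High-Active mice. Over all genes 14.5 percent were called between the lines, so with so few markers these counts say little by themselves. The part of striosomes and matrix in the Oprm1 difference was not tested.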

How the data were processed

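Striatal RNA of 20 mice was sequenced from stranded libraries. The authors aligned reads with TopHat2 2.0.10 to GRCm38 and deposited raw counts per Ensembl gene from HTSeq 0.6.1. The strand setting is not given in the sources used here. Reads outside genes (8.17 to 9.55% of a library) were left out. Genes over 1 CPM in at least 3 mice were TMM-normalized and tested in edgeR 4.0.16 (quasi-likelihood test, R 4.3.3) with 1 mean per group, Benjamini-Hochberg adjustment over all 14792 genes and a threshold of 0.1. CPM values use TMM library sizes, and log2 CPM a prior count of 2. Alternatives were DESeq2 1.42.0, robust likelihood-ratio tests, RLE, other filters, limma 3.58.1 with parents as a block, marker covariates, counts summed per pair of parents, and each mouse left out. Relations used 100000 permutations within groups (numpy 2.4.6) of deviations from group means. Exon lengths and sequences came from GENCODE M21. The quasi-likelihood fit was tested on data simulated with independent mice, which do not cover shared parents or differing dissections. Named genes were the 5 members, Penk, Pdyn and Pomc, up to 3 called genes per list and direction, and the 3 nearest genes per member. Pcsk2, Kcnj3, Kcnj6 and Kcnj9 were named after their values were seen. The seventh list, of 4 genes, is counted among the 64 genes but is not reported here by itself. The members and lists were chosen with earlier results of these data known. Replicates are separate mice numbered in accession order, some of them brothers.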

Additional observations from a re-analysis of the deposited data

Results flagged for a closer look

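Among the 20 sets of 5 mice examined for single values far from the rest (5 genes in 4 groups), 1 stood apart. Oprk1 was 27.5 CPM in Control amphetamine mouse 2, while the other 4 mice of that group lay between 37.9 and 41.1 CPM. Chance alone sets apart about 1 in 20 such groups. Without this mouse the line difference of Oprk1 stayed below 0 and uncalled, and the amphetamine effect was 0.03 on the log2 scale in place of -0.02.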

How the results depend on the processing

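All values in this paragraph are log2 differences or counts of genes at an adjusted p under 0.1. Oprm1 kept its call between the lines in 6 of 8 alternatives and lost it with cortical and oligodendrocyte scores as covariates (0.36) and with counts summed per pair of parents (0.50). Pnoc lost its call without the low-count filter (0.49), with the covariates (0.21), in limma-voom with the parents as a block (0.42) and with summed counts (0.39). In saline mice Oprm1 passed the threshold with DESeq2 and with the likelihood-ratio test. With the covariates, uncalled differences changed sign for Oprd1 between the lines (0.063, with 0.082 in saline and 0.044 in amphetamine mice), for Oprl1 between the lines in saline mice (-0.12) and for the amphetamine effect of Oprl1 (0.11) and Pnoc (0.016). They also did for the response of High-Active mice in Oprm1 (0.21), Oprk1 (-0.056) and Oprl1 (0.23) and of Control mice in Pnoc (0.11). The likelihood-ratio test turned the High-Active response of Oprm1 (0.0093) and Oprk1 (-0.011). Each cause was not tested.
The count of line effects was 429 with the covariates and 609 with summed counts, and in saline mice 61, and in amphetamine mice 74, with the covariates. DESeq2 gave 1111 genes between the lines in saline and 462 in amphetamine mice, 391 for the amphetamine effect, and 6 and 131 for the response of Control and High-Active mice. The likelihood-ratio test gave 1091, 506, 458, 45 and 280 for the same comparisons and 6 for the interaction.
With each mouse left out in turn, Oprm1 between the lines ranged from 0.398 to 0.522 and kept its call in 20 of 20 fits. Pnoc ranged from 0.40 to 0.556 and lost its call without any of the 10 Control mice except Control saline 4 and Control amphetamine 3, without High-Active saline 1, 3 or 4 and without High-Active amphetamine 2, 3 or 4. The Oprm1 difference in saline mice was called without High-Active saline 1 (adjusted p = 0.0931) or High-Active amphetamine 4 (adjusted p = 0.0890). Uncalled values changed sign within these ranges: Oprd1 from -0.11 to 0.019 between the lines, from -0.14 to 0.11 between the lines in saline mice, from -0.19 to 0.063 in the interaction and from -0.095 to 0.16 in the High-Active response. Oprk1 ranged from -0.066 to 0.030 in the amphetamine effect, from -0.031 to 0.15 in the interaction, from -0.12 to 0.040 in the Control and from -0.082 to 0.087 in the High-Active response. Oprl1 ranged from -0.0068 to 0.16 between the lines in saline mice and from -0.10 to 0.062 in the High-Active response, Oprm1 from -0.13 to 0.12 in the High-Active response and Pnoc from -0.18 to 0.055 in the Control response.
Counts over all genes moved with single mice. The line effect ranged from 1381, without High-Active amphetamine 2, to 2535, and was also below the 1.5-fold bound without High-Active saline 4 (1405) and Control saline 5 (1400). In saline mice it ranged from 187, without Control saline 5, to 691, and in amphetamine mice from 79, without High-Active amphetamine 2, to 200. The amphetamine effect ranged from 0 to 339 and the High-Active response from 0 to 68, both highest without High-Active amphetamine 2, the Control response from 0 to 3 and the interaction from 0 to 1. The relation of Oprl1 and Pnoc ranged from an r of 0.821 to 0.891 with each mouse left out, an alternative chosen after seeing the data like the others of the relations. At 137 to 375 reads per mouse, counting error adds more to Oprm1 than to the other receptors.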
